A study of Mus musculus with 16 samples.

Results

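Acan, Hapln1, Matn1, Matn4, Sox5 and Sox6 are 6 of the 57180 genes in the count files, chosen by name as genes of airway cartilage with collagens left out. RNA was measured in whole lungs of mouse fetuses, described as male, at embryonic age E14.5, in 16 libraries that form 4 groups of 4. The groups were C57BL/6J (B6) control, B6 BMS493, A/J control and A/J BMS493, where B6 and A/J are inbred strains. Dams received BMS493, an inverse agonist that lowers the activity of all retinoic acid receptors, or corn oil as control, by mouth from E9.5 to E14.5, and the BMS493 dose was 3.75 µg/g/day. No engineered allele is given for any group. Which fetuses came from the same dam is not given, so litter and treatment cannot be told apart and p-values measure only the spread between these libraries.

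Airway cartilage forms from mesenchyme around the trachea and main bronchi, where SOX9 together with SOX5 and SOX6 turns on the genes of the cartilage matrix. Aggrecan, the product of Acan, is a large proteoglycan that holds water in cartilage, and the link protein encoded by Hapln1 fastens it to hyaluronan. Matrilins, encoded by Matn1 and Matn4, are adaptor proteins that join collagen fibres to proteoglycans. Link protein and SOX5 and SOX6 also act outside cartilage, in loose embryonic matrix and in other cell lineages.

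Between 15207539 and 24146224 fragments per library were assigned to genes, which was 71.7% to 76.9% of all fragments. The assigned share averaged 75.8% ± 0.935 over the 8 B6 libraries and 73.5% ± 1.43 over the 8 A/J libraries (SD), while 3.16% ± 0.156 against 3.90% ± 0.134 of fragments mapped to several places. GRCm39, the build named in the submitters' processing notes, is a genome of B6 mice and not of A/J. The part of this mapping difference in the strain comparisons was not tested. Replicate 3 of the B6 BMS493 group stood apart, with a median deviation of 0.175 (log2) from its group's mean level against 0.0735 to 0.135 in the 15 other libraries. Retinoic acid targets fell with BMS493 in both strains, 5 of 9 tested in B6, where 0.423% of all tested genes were called, and 4 of 9 in A/J, where 0.486% were. With both strains averaged, 6 of 9 tested retinoic acid targets fell, against 1.37% of all tested genes called, and the median log2 change of the 9 was -0.95. Cyp26b1, which breaks down retinoic acid, went from 18.2 ± 5.14 to 1.47 ± 0.667 CPM in B6 (SD, n = 4), where CPM is the count divided by the scaled library size, and A/J lungs went from 19.9 ± 5.73 to 1.05 ± 0.276 CPM.

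Of the 11 genes listed as chondrocyte markers, 8 passed the filter on low counts, and Matn1, Acan, Comp and Snorc were at or near the detection limit. Matn1, a marker of mature chondrocytes of the trachea, had 12 counts in all 16 libraries together. Its counts were 0, 0, 1 and 1 in replicates 1 to 4 of the B6 controls, 0, 3, 1 and 0 in B6 BMS493, 1, 0, 0 and 2 in the A/J controls and 0, 0, 2 and 1 in A/J BMS493. In 8 of 16 libraries the count was 0, and a count of 0 allows up to 3 counts, which is 0.124 to 0.200 CPM depending on the library. Matn1 was removed by the filter, and no fold is given for it. The other 5 genes were tested among 17276 genes.

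Acan was also near the detection limit, with 7 to 39 counts per library. Its level was 1.55, 0.537, 0.396 and 0.721 CPM in replicates 1 to 4 of the B6 controls, and 0.353, 0.930, 2.60 and 0.402 CPM in B6 BMS493. It was 1.21, 0.606, 0.501 and 0.908 CPM in the A/J controls and 0.835, 0.308, 0.605 and 0.453 CPM in A/J BMS493. The highest Acan value came from replicate 3 of B6 BMS493, the library that stood apart, and all 4 groups overlapped. Comp, a glycoprotein of the cartilage matrix, had 3 to 13 counts per library, and Snorc, a chondrocyte membrane proteoglycan, had 0 counts in 14 of 16 libraries. The other genes of the chondrocyte list were expressed: over the 16 libraries Sox9 averaged 95.5 CPM and Col2a1, which encodes the main cartilage collagen, averaged 103.8 CPM. Sox9 is also in the list of lung epithelium markers used here, so its level cannot be given to chondrocytes alone. The minor cartilage collagens Col9a2, Col11a2, Col9a3 and Col9a1 averaged 33.99, 29.1, 21.1 and 9.64 CPM, and Cnmd, which encodes chondromodulin, averaged 3.84 CPM. Markers of skeletal muscle and body wall, which adjoining tissue would carry, summed to 1.08 to 3.66 CPM per library. The 5 heart markers, of which 4 were tested, varied more, with sums of 24.7 to 35.0 CPM in B6 controls and 8.84 to 40.1 CPM in B6 BMS493. The A/J heart sums were 6.98 to 24.0 CPM without BMS493 and 14.51 to 34.2 CPM with it. The highest heart sum, 40.1 CPM, was in replicate 3 of B6 BMS493, and its part in the values of that library was not tested.

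Per kb of joined exon length, the 6 genes spread over a wide range. Mean levels over the 16 libraries were 10.5 ± 3.32 CPM per kb for Hapln1 and 6.31 ± 2.46 for Matn4 (SD, n = 16). Sox6 at 1.60 and Sox5 at 1.54 ± 0.235 CPM per kb differed by less than the spread between libraries. Acan reached 0.108 ± 0.0783 and Matn1 0.0192 ± 0.0224 CPM per kb. Hapln1 thus stood at a level close to that of Col2a1 (11.2 CPM per kb), while the proteoglycan it binds in cartilage, aggrecan, was about at the level of Comp (0.127 CPM per kb). Vcan, which encodes versican, the hyaluronan-binding proteoglycan of embryonic loose tissue and another partner of link protein, stood at 40.7 CPM per kb. Among relatives, Sox13 (8.33), Matn2 (3.31) and Hapln3 (1.76 CPM per kb) were expressed at levels within the range of the 6 genes, and Bcan, Hapln2 and Hapln4 did not pass the filter.

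**Figure D1:**
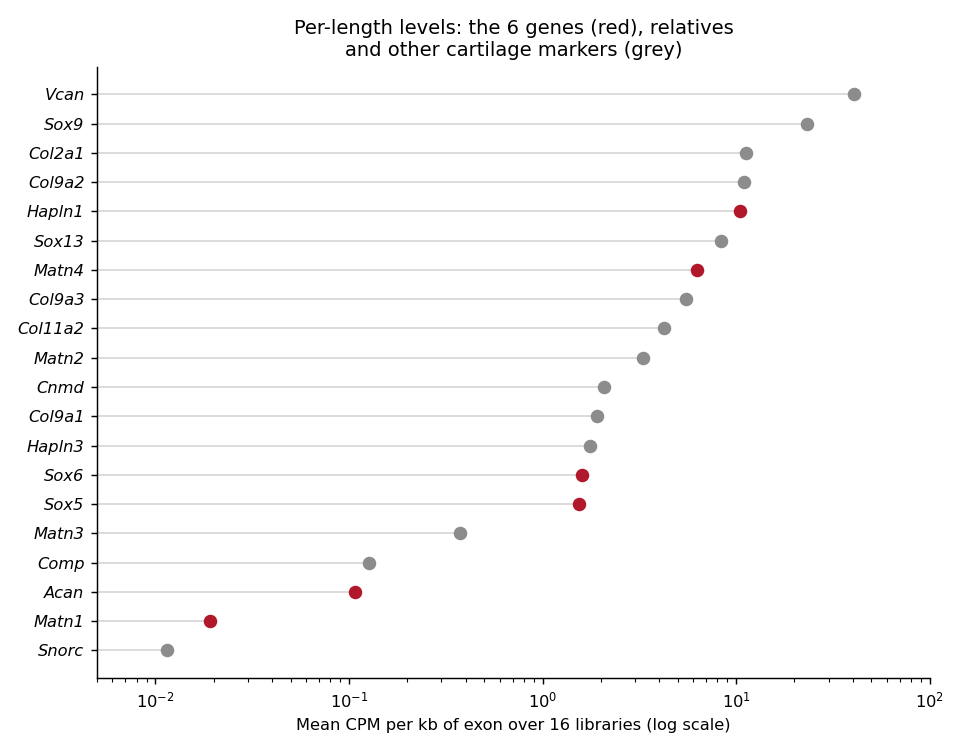
Mean CPM per kb of joined exon length over the 16 libraries on a log axis, for the 6 genes (red) and for relatives and other cartilage markers (grey). Hapln1 at 10.5 and Matn4 at 6.31 lie near the collagens, and Acan at 0.108 and Matn1 at 0.0192 lie near the bottom with Comp and Snorc.

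The promoters of Hapln1, Matn4 and Sox5 are shown because these 3 genes differed between the strains, with Hapln1 and Matn4 lower and Sox5 higher in A/J. Each sequence is the 250 bases before the annotated start of transcription, 5′ to 3′ on the gene's strand, from RefSeq on GRCm38.p6. Capitals mark matches, on either strand, to the SOX core (ACAAT or ACAAAG) or to a retinoid receptor half-site (AGGTCA or GGTTCA or AGTTCA). These are reference sequences, and strain variants were not analysed here.
Hapln1, chr13:89540386-89540635, plus strand: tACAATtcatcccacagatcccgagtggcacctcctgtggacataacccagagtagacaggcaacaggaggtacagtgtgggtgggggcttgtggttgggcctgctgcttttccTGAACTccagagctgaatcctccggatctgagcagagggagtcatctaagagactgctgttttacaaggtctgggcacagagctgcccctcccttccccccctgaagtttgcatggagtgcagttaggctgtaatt
Matn4, first of its starts, chr2:164405161-164405410, minus strand: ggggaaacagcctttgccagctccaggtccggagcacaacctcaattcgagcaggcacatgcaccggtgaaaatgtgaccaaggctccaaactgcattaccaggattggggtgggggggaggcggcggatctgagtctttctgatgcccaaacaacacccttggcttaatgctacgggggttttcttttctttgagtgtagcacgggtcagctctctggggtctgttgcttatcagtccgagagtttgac
Sox5, chr6:143947107-143947356, minus strand: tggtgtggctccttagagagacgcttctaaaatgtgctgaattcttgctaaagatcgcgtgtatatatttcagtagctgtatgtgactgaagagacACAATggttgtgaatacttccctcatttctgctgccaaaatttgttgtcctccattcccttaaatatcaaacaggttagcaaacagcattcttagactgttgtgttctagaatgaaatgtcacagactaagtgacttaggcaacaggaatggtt
The Hapln1 window held 1 SOX core match, ACAAT at bases 249 to 245 before the start, and 1 half-site match, AGTTCA on the opposite strand at bases 136 to 131. The Sox5 window held ACAAT at bases 154 to 150, and the Matn4 window held no match to either set of letters. Among 32817 promoter windows of the same length, 38.8% held a SOX core match and 30.7% a half-site match, so a match in 1 window is common.

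The strains differed in the levels of Hapln1, Matn4 and Sox5. Of the 5 tested genes, 3 differed between A/J and B6 controls at an adjusted p under 0.05, where 16.9% of all tested genes did. In BMS493 lungs 2 of 5 differed against 20.0% of all tested genes, and 3 of 5 differed with treatments averaged against 31.7%. Strain differences were thus common across the genome, and the counts for these genes are read against those shares.

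Hapln1, the link protein gene, had lower levels in A/J with either treatment. B6 controls had 94.6, 81.7, 97.9 and 83.8 CPM in replicates 1 to 4, and A/J controls had 48.9, 49.6, 48.8 and 54.6 CPM. B6 BMS493 lungs had 81.3, 59.2, 56.5 and 65.2 CPM, and A/J BMS493 lungs had 45.4, 49.7, 38.0 and 38.0 CPM. Every A/J library lay below every B6 library, 8 against 8, which 9.33% of tested genes shared in either direction. The control difference, A/J minus B6, was -0.83 (log2; SE 0.10; adjusted p = 2.05e-06 in edgeR's quasi-likelihood test), which is 0.563 times the B6 level. The BMS493 difference was -0.62 (log2; SE 0.10; adjusted p = 0.000115). No library left out ended either call.

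Matn4, the matrilin gene that was well expressed, was also lower in A/J. B6 controls had 38.7, 37.6, 36.5 and 36.3 CPM and A/J controls had 24.5, 21.4, 26.1 and 16.3 CPM. B6 BMS493 lungs had 31.0, 54.2, 64.7 and 38.4 CPM and A/J BMS493 lungs had 22.3, 24.4, 23.5 and 26.6 CPM. Again every A/J library lay below every B6 library, and within BMS493 lungs alone 19.5% of tested genes showed no overlap. The 4 B6 controls were close together (SD 1.12 CPM), whereas the B6 BMS493 libraries were spread widely (SD 15.3 CPM). The A/J minus B6 difference was -0.75 in controls (log2; SE 0.19; adjusted p = 0.0108) and -0.96 in BMS493 lungs (log2; SE 0.19; adjusted p = 0.00162). Without replicate 3 of B6 BMS493 the latter was -0.78 (adjusted p = 0.00395). In GENCODE M21, exons of Matn4 overlap those of Rbpjl on the opposite strand, and the libraries do not keep strand. The 2 strand columns summed to 1.15 times the count without strand, with 1.13 to 1.16 over the groups.

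Epithelial and endothelial marker sums were lower in A/J, as were Hapln1 and Matn4. The 6 markers of lung epithelium, all tested, summed to 1041 to 1207 CPM in B6 controls and 1055 to 2070 in B6 BMS493, while the A/J sums were 702.6 to 869.2 without and 777.9 to 951.8 with BMS493. Of that sum, Sftpc, a surfactant protein gene, averaged 280.9 CPM in B6 controls against 81.1 CPM in A/J controls, while Sox9, in the same list, averaged 86.8 against 107.8 CPM. The 6 markers of proximal airway epithelium, of which 5 were tested, summed to 43.6 to 54.2 CPM in controls and 35.4 to 72.7 CPM with BMS493 in B6, against 26.4 to 35.8 and 24.7 to 31.2 CPM for A/J. The 5 endothelial markers, all tested, summed to 957.6 to 1059 and 906.7 to 1129 CPM in the B6 groups against 705.0 to 849.3 and 691.3 to 824.4 CPM in A/J. The part of these cell types in the Hapln1 and Matn4 differences was not tested, and in whole lungs fewer cells of a type and less RNA per cell cannot be told apart. The summed chondrocyte markers overlapped between strains, at 275.0 to 313.0 CPM in controls of B6 against 248.9 to 325.1 CPM in controls of A/J. With BMS493 they were 277.4 to 403.7 CPM against 279.3 to 300.6 CPM, and 403.7 CPM, the highest sum of the 16 libraries, was in replicate 3 of B6 BMS493, which also had the highest Acan and Matn4. Within the chondrocyte list, mean levels in controls went both ways. Sox9 (86.8 CPM in B6, 107.8 in A/J) and Col2a1 (101.2 CPM in B6, 107.2 in A/J) had higher means in A/J, and Col9a1, Col9a2, Col9a3, Col11a2 and Cnmd had lower ones.

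Sox5, a transcription factor that works beside SOX9, went the other way. B6 controls had 18.7, 21.3, 21.9 and 21.4 CPM and A/J controls had 26.4, 27.3, 23.3 and 29.1 CPM, without overlap, which 24.3% of tested genes showed in this contrast. B6 BMS493 lungs had 21.3, 20.3, 17.6 and 16.4 CPM and A/J BMS493 lungs had 23.2, 23.6, 21.0 and 21.0 CPM, which overlapped. The A/J minus B6 difference was 0.35 in controls (log2; SE 0.095; adjusted p = 0.0110) and 0.23 in BMS493 lungs (log2; SE 0.096; adjusted p = 0.0982), and averaged over treatments it was 0.29 (log2; SE 0.067; adjusted p = 0.00167). Without replicate 1 of the B6 controls the control difference missed the threshold (0.30; adjusted p = 0.0515), and without replicate 1 of B6 BMS493 the BMS493 difference passed it (0.29; adjusted p = 0.0420). Among the marker sums, mesothelium was also higher in every A/J control (94.0 to 109.4 CPM) than in every B6 control (87.7 to 93.6 CPM), and lung mesenchyme had a mean of 1017 against 964.6 CPM with overlap. Erythroid markers, all 7 tested, had means of 2374 against 1911 CPM with overlap, and the part of these cell types in the Sox5 difference was not tested. The antisense gene Sox5os1 overlaps exons of Sox5, and without strand the fragments of that overlap cannot be told apart. Ambiguous fragments stand in a line that is not a gene (4.26% to 4.68% of fragments per library), so the Sox5 count without strand leaves them out. The 2 strand columns of Sox5 summed to 1.06 times the count without strand, and 8.98% of the 50-base windows of Sox5 transcripts also occurred in transcripts of other genes, Sox5os1 among them.

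Sox6, the close relative of Sox5, gave no strain difference past the threshold. It had 20.5, 23.9, 27.9 and 23.9 CPM in B6 controls and 29.9, 26.0, 22.5 and 24.1 CPM in A/J controls. In BMS493 lungs it had 25.8, 28.3, 20.8 and 19.8 CPM in B6 and 21.0, 26.1, 18.0 and 22.4 CPM in A/J. The groups overlapped throughout, and the averaged A/J minus B6 difference was -0.014 (log2) with a 95% interval of -0.20 to 0.17. Whether Sox5 and Sox6 differed in their strain difference was not tested. For Acan the strain difference was 0.0091 in controls and -0.91 with BMS493, neither called, and the average of -0.45 became -0.036 without replicate 3 of B6 BMS493. The interval of the average was far wider than for Sox6, from -1.25 to 0.35 (log2), on 7 to 39 counts per library and with a CV of 39.5% to 98.3% within groups. The parts of depth and of spread between libraries in this width were not tested. Sox9, their partner, was higher in A/J by 0.30 (log2; SE 0.088; adjusted p = 0.0153) with treatments averaged. It was not called in controls (0.32; adjusted p = 0.0951) or in BMS493 lungs (0.28; adjusted p = 0.134), and without replicate 3 of B6 BMS493 the averaged difference missed the threshold (0.27; adjusted p = 0.0597). Col2a1 gave -0.035 averaged over treatments, with an interval of -0.31 to 0.24.

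**Figure D2:**
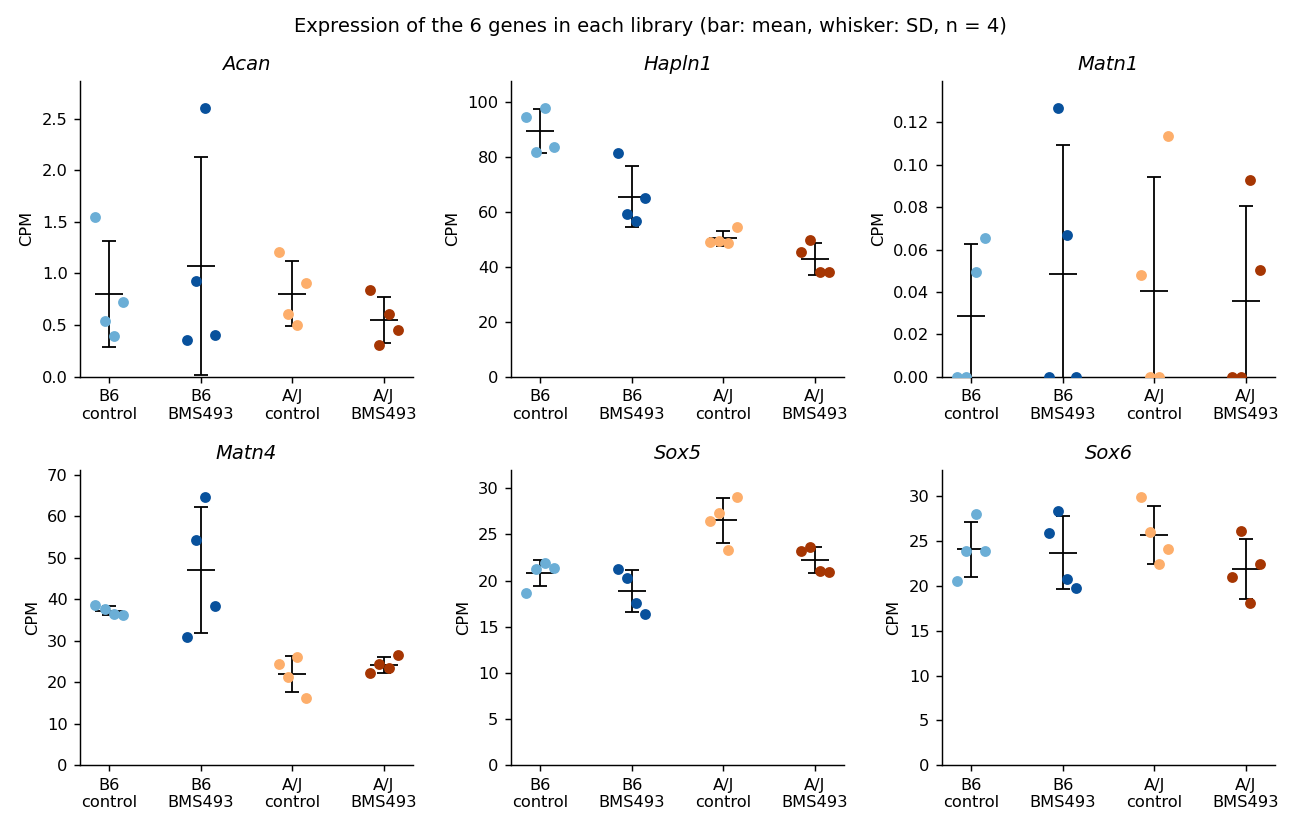
CPM of the 6 genes in each library of the 4 groups, with the mean (bar) and SD (whisker, n = 4); each panel has its own axis from 0, and whiskers reaching below 0 end at the axis. Hapln1 and Matn4 are lower in all 8 A/J libraries, Sox5 is higher in A/J controls, and Matn1 stays at or under 3 counts.

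**Figure D3:**
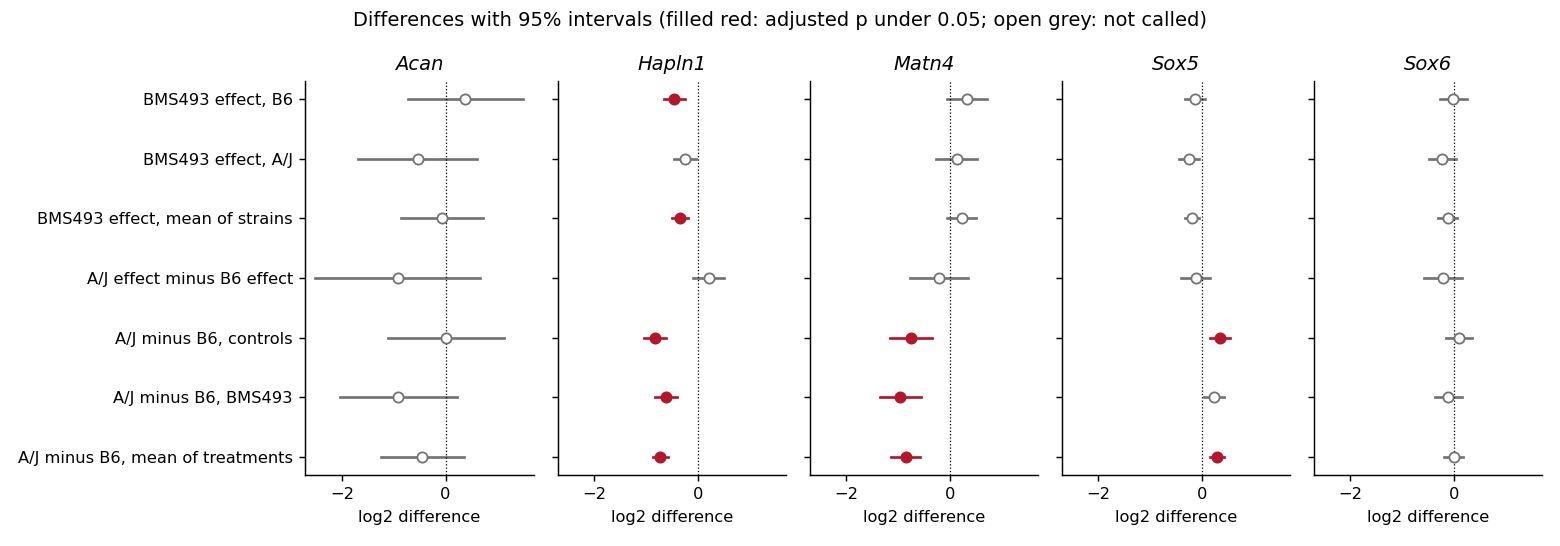
Log2 differences with 95% intervals for the 5 tested genes in the 7 contrasts, with filled red points for an adjusted p under 0.05 and open grey points otherwise. Hapln1 is the only gene of the 5 with a called BMS493 effect, and Acan has the widest intervals.

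BMS493 lowered Hapln1 and gave no call in the other 4 tested genes. With both strains averaged, 1 of 5 genes changed, where 1.37% of all tested genes did. Hapln1 fell by 0.34 on the log2 scale (SE 0.072; 95% interval -0.49 to -0.19; adjusted p = 0.0124), which is 0.789 times the control level. This call held with every other scaling, filter, test, block and strand column tried and with each library left out, at adjusted p between 1.21e-07 and 0.0456, and without replicate 3 of B6 BMS493 the change was -0.31 (adjusted p = 0.0251). The B6 mean went from 89.5 ± 7.95 to 65.5 ± 11.1 CPM, and the A/J mean from 50.5 ± 2.77 to 42.8 ± 5.76 CPM (SD, n = 4).

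Of the 14 marker lists, 7 had lower mean sums with BMS493 in both strains, 1 had a higher mean in both and 6 went opposite ways. The 7 were mesothelium, airway smooth muscle, neural crest and neurons, oesophagus, lung mesenchyme, endothelium and erythroid cells, and the 1 was lung epithelium, with means of 1121 and 1449 CPM in B6 and 804.5 and 845.2 CPM for A/J. The 5 mesothelial markers, all tested, summed to 87.7 to 93.6 CPM in B6 controls and 60.5 to 93.8 with BMS493, which overlapped, and the A/J sums were 94.0 to 109.4 without and 77.7 to 89.5 CPM with BMS493, which did not. The 6 airway smooth muscle markers, of which 5 were tested, summed to 1037 to 1106 CPM in B6 controls against 844.4 to 1035 with BMS493, just without overlap, while the A/J sums, 834.4 to 1049 and 800.8 to 910.7 CPM, overlapped. Means for neural crest and neurons (7 markers, 6 tested) went from 25.5 to 21.8 CPM in B6 and 24.0 to 21.3 CPM for A/J, and those for oesophagus (4 markers, 3 tested) from 25.01 to 21.6 and from 22.9 to 21.1 CPM, with overlap between treatments in every case. Means for lung mesenchyme, all 6 markers tested, were 964.6 and 912.3 CPM in B6, and 1017 and 989.7 CPM for A/J, also with overlap. Within that list Foxf1, a transcription factor chosen here after its values were seen, spanned 183.8 to 213.9 CPM in B6 controls against 118.5 to 163.9 with BMS493. It had no overlap, like 4.71% of tested genes in B6. The A/J values, 186.9 to 215.1 against 150.5 to 181.4 CPM, did not overlap either, and the A/J share was not computed. Tbx4 and Wnt2 also had lower means with BMS493 in both strains, and Tbx5 in B6 alone. Pdgfra and Fgf10 had higher means in both strains. In B6 they went from 224.1 to 234.1 and from 39.1 to 43.3 CPM, and in A/J from 247.3 to 261.6 and from 36.6 to 38.9 CPM. The part of these cell types in the Hapln1 change was not tested.

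Within B6 alone the Hapln1 call stood close to the threshold. All 4 B6 BMS493 libraries lay below all 4 B6 controls, which 4.71% of tested genes did in either direction, although the gap between 81.3 and 81.7 CPM was narrow. The change was -0.45 (log2; SE 0.10; adjusted p = 0.0465), and it was the 1 gene called of 5, against 0.423% of all tested genes. It missed the threshold in 12 of 16 fits that left out 1 library, with adjusted p of up to 0.184, and in a fit of the 8 B6 libraries alone (0.149) and with the counts of 1 strand column (0.111), while the size stayed between -0.57 and -0.39. Leaving out replicate 2 of B6 BMS493 gave -0.40 (adjusted p = 0.164) and leaving out replicate 3 gave -0.39 (adjusted p = 0.133).

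In A/J, 0 of 5 genes were called by edgeR or DESeq2, against 0.486% of all genes tested by edgeR. An unadjusted p under 0.05 was found for 2 of 5 (Hapln1 and Sox5), and for 1076 of all 17276 tested genes. The Hapln1 change in A/J was -0.24 (log2; 95% interval -0.45 to -0.024; adjusted p = 0.689), with 3 of 4 BMS493 libraries below all controls. The difference between the effects in the 2 strains was 0.21 (log2; 95% interval -0.086 to 0.51; adjusted p = 0.999), so a difference between strains was not shown for Hapln1. For the interaction 0 of 5 genes passed in edgeR or DESeq2, where edgeR called 0.00579% of all tested genes. An unadjusted p under 0.05 was found for 0 of 5, and for 636 of all 17276 tested genes.

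The other members had intervals that set limits on a BMS493 effect. Sox5 gave -0.20 (log2; 95% interval -0.33 to -0.057; adjusted p = 0.204) averaged over strains, and Sox6 gave -0.12 (95% interval -0.31 to 0.061). Matn4 gave 0.23 (95% interval -0.049 to 0.51; adjusted p = 0.576), with 2 of the 4 B6 BMS493 libraries (54.2 and 64.7 CPM) above all B6 controls and 1 (31.0 CPM) below them. Without replicate 3 the B6 estimate for Matn4 went from 0.33 to 0.15. Acan gave -0.077 (95% interval -0.87 to 0.71), and its B6 estimate turned from 0.38 to -0.46 when replicate 3 of B6 BMS493 was left out. Sox9 and Col2a1 gave -0.050 and -0.018 (log2) and were not called.

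Within groups the genes did not move as a block. Over the 16 libraries, deviations from the group mean of log2 CPM had r = -0.69 (rho = -0.58) for Hapln1 with Matn4 and r = 0.71 (rho = 0.65) for Sox5 with Sox6. These are descriptions over libraries that share their scaling and dissection, and no test was made. Replicate 1 of B6 BMS493 had the lowest Matn4 deviation (-0.54) and the highest of Hapln1 (0.32). Replicate 3 of that group, the library that stood apart, had the highest Matn4 deviation (0.52) and the lowest of Hapln1 (-0.20). No r was computed without these libraries, here or for the marker sums below. Library by library, the 2 highest Matn4 values (replicates 2 and 3 of B6 BMS493) were in the 2 libraries of that group with the lowest Hapln1. The same 2 libraries had the highest summed lung epithelium markers of their group, 2070 and 1519 CPM against 1055 and 1152 CPM in replicates 1 and 4. Over all 16 libraries Matn4 deviated with the sums for airway smooth muscle (r = 0.80, rho = 0.71), heart (r = 0.81, rho = 0.65), proximal airway epithelium (r = 0.79, rho = 0.62), chondrocytes (r = 0.73, rho = 0.56), lung epithelium (r = 0.72, rho = 0.73), erythroid cells (r = 0.62, rho = 0.59) and endothelium (r = 0.57, rho = 0.62), and against the sum for mesothelium (r = -0.76, rho = -0.60). Hapln1 had r = -0.66 (rho = -0.64) with proximal airway epithelium and r = 0.66 (rho = 0.49) with mesothelium. With lung epithelium it had r = -0.40 (rho = -0.27), and with endothelium r = -0.011 (rho = 0.015). Sox6 had r = 0.66 (rho = 0.64) with endothelium. Sox5 had r = -0.62 (rho = -0.62) with liver, whose 5 markers, of which 2 were tested, summed to only 1.30 to 12.5 CPM per library. The part of tissue make-up in these values was not tested.

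**Figure D4:**
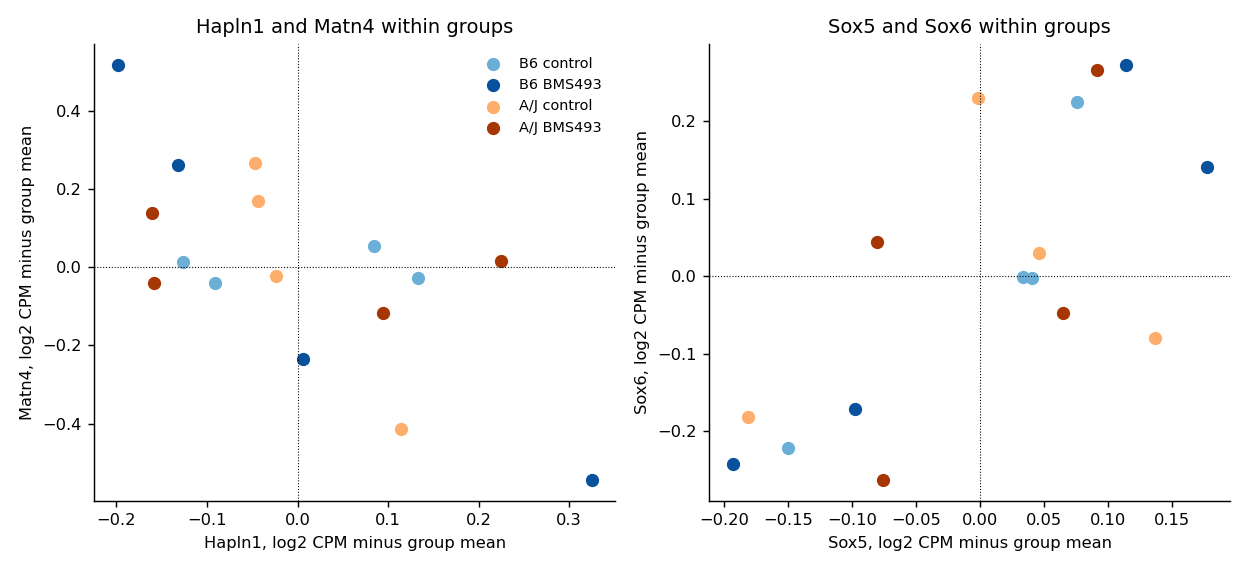
Deviation of each library's log2 CPM from its group mean, for Hapln1 against Matn4 (left, r = -0.69) and Sox5 against Sox6 (right, r = 0.71), with 16 libraries coloured by group. The left cloud runs downward, with replicates of B6 BMS493 at both ends, and the right cloud runs upward.

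The genes most like each member were taken as the 3 with the highest r between such deviations, among 13038 genes with a mean CPM of at least 1 (13039 for Acan, which is below that level). For Hapln1 these were Zfp810 (r = 0.85), Zfp180 (0.84) and Adgrl2 (0.84). For Matn4 they were Spint2 (0.96), Dlk1 (0.95) and Tmem176a (0.95). Sox5 was nearest to Kdm4c (0.88), AW554918 (0.87) and Kdm5a (0.87), and Sox6 to Enox1 (0.95), Fndc3b (0.93) and Cyyr1 (0.90). Acan was nearest to Pdcd4 (0.88), Smco4 (0.86) and Ccs (0.86), on 7 to 39 counts per library. No member and no gene of the cartilage lists described below was among the 3 nearest to any member.

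Family relatives showed strain differences in both directions. Of 9 relatives 6 were tested, and 2 differed in controls, against 16.9% of all tested genes. Hapln3, a link protein gene of wider expression, was higher in A/J controls (8.94 ± 2.02 against 4.95 ± 0.897 CPM, SD, n = 4; log2 difference 0.86; adjusted p = 0.00584), the opposite direction to Hapln1. Matn2, a matrilin of many connective tissues, was lower (13.02 ± 2.47 against 27.3 ± 1.73 CPM; log2 difference -1.06; adjusted p = 0.000172), the same direction as Matn4. Both were called with the same direction in BMS493 lungs, at 1.04 and -0.76. The difference between Hapln1 and Hapln3 was not itself tested. For the averaged BMS493 effect 0 of 6 relatives were called by edgeR or DESeq2, where edgeR called 1.37% of all tested genes. An unadjusted p under 0.05 was found for 1 of 6, and for 1868 of all 17276 tested genes.

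Of 18 further non-collagen matrix genes of cartilage, 11 were tested. In controls 2 were higher and 6 lower in A/J, where 16.9% of all tested genes differed, with a median log2 difference of -0.53 over the 11, against 0.0081 over all tested genes. Otor (2.84; 4.54 ± 0.668 against 0.629 ± 0.150 CPM) and Cytl1 (2.10; 33.2 ± 5.17 against 7.79 ± 0.892 CPM), which encode small secreted proteins found in cartilage, were the 2 that were higher. Otor had 9 to 119 counts per library. Chad, the adhesion protein chondroadherin, was lower (-1.67; 0.436 ± 0.126 against 1.40 ± 0.224 CPM), but was near the detection limit with 5 to 40 counts per library. In BMS493 lungs Chad was not called (-0.92; adjusted p = 0.0554 in edgeR). Cnmd, the anti-angiogenic chondromodulin, was lower both in controls (-1.46; 2.00 ± 0.191 against 5.56 ± 0.713 CPM) and in BMS493 lungs (-1.01; 2.58 ± 0.437 against 5.22 ± 0.581 CPM). The 2 that were higher also passed in BMS493 lungs, where 3 were lower, the median was -0.30 and 20.0% of all tested genes differed. Strain differences within cartilage genes were thus of both signs, as for the 3 members.

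With BMS493, 1 of these 11 genes was called in B6 and with strains averaged, the small proteoglycan gene Dcn, against 0.423% and 1.37% of all tested genes. It fell by 0.80 on the log2 scale in B6, from 94.8 ± 3.07 to 54.5 ± 7.30 CPM (adjusted p = 2.46e-05), and by 0.53 averaged over strains. The A/J change was not called (-0.26; adjusted p = 0.360; from 61.6 ± 3.46 to 51.4 ± 6.98 CPM), and the difference of the effects was 0.54 (adjusted p = 0.803). Decorin is made by many fibroblasts and is not a cartilage marker alone.

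**Figure D5:**
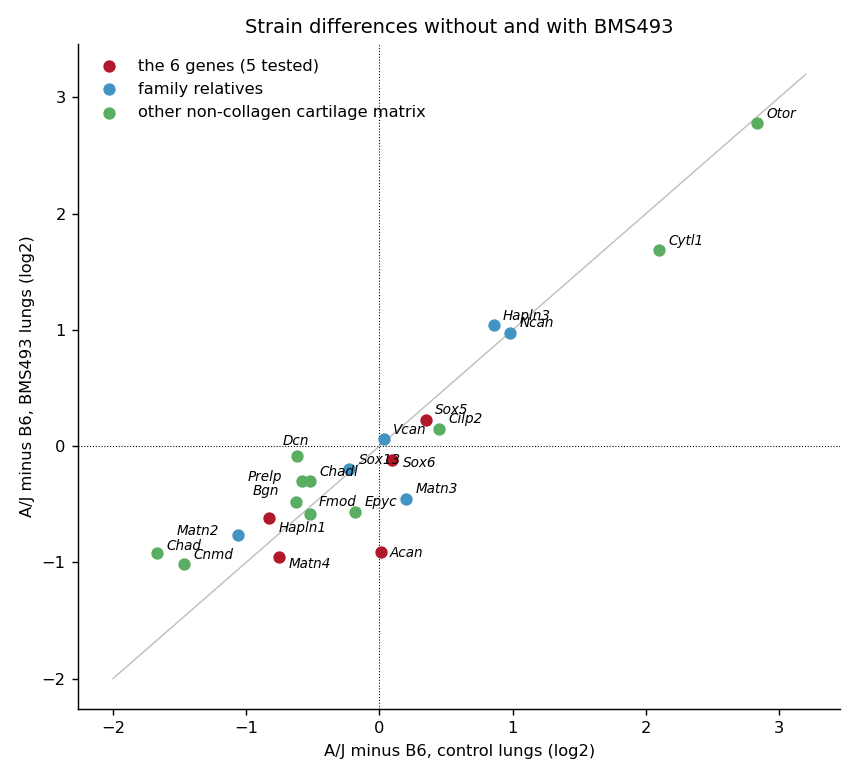
A/J minus B6 log2 differences in control lungs (horizontal) and BMS493 lungs (vertical) for the 5 tested members (red), their relatives (blue) and other non-collagen matrix genes (green); the grey line marks equal differences. Hapln1 and Matn4 lie in the lower left with Matn2, and Otor and Cytl1 lie in the upper right. The 2 axes share no libraries.

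Regulators and modifiers of the matrix were tested beside the members. In the control strain contrast 16.9% of all tested genes were called, and the counts of these lists are read against that share. Of 12 tested chondrocyte regulators, 1 was higher and 1 lower in A/J controls: Arid5b, a SOX9 coactivator (0.32), and Fgfr3, the receptor that restrains growth of cartilage (-0.69; 65.9 ± 4.35 against 106.5 ± 6.10 CPM). Of 20 tested genes of chondroitin sulfate synthesis, which builds the sugar chains of aggrecan, 1 was higher and 3 lower in A/J controls. With BMS493 averaged over strains, where 1.37% of all tested genes were called, 1 of the 20 fell: Papss2, which makes the sulfate donor and is needed for cartilage growth (-0.45; SE 0.098; adjusted p = 0.0148). Its level went in B6 from 8.51 ± 1.28 to 6.66 ± 0.559 CPM, and the A/J level from 6.51 ± 0.669 to 4.46 ± 0.215 CPM (SD, n = 4). Among 14 tested genes that make or break down hyaluronan and aggrecan, Cemip, a hyaluronan-degrading protein, rose with BMS493 averaged over strains (0.40; adjusted p = 0.0140), and was not called in B6 (0.49; adjusted p = 0.0795) or A/J alone (0.30; adjusted p = 0.597). Cd44, a hyaluronan receptor, was lower (-0.71) and the aggrecanase-family gene Adamts15 higher (0.79) in A/J controls, 2 of the 4 of 14 called there.

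Among 15 genes that pattern the airway wall, 3 differed between control strains, against 16.9% of all tested genes. Wnt5a, whose signal shapes the tracheal cartilage rings, was lower in A/J (-0.69; 34.1 ± 2.89 against 55.0 ± 3.70 CPM), Fgf18 was lower (-0.60) and Rspo2, an enhancer of Wnt signalling, higher (0.58). The Rspo2 call ended in 8 of 16 fits that left out 1 library, and these 8 were all the fits that left out a control library, the only libraries this contrast compares. It also ended in edgeR with no filter (0.58; adjusted p = 0.0931) and with library numbers as a block (0.58; adjusted p = 0.0535). The Fgf18 call ended without replicate 1 of the B6 controls (-0.50; adjusted p = 0.0927) or of the A/J controls (-0.52; adjusted p = 0.0792), and with 1 strand column (-0.49; adjusted p = 0.0983). Notum, a secreted Wnt inhibitor that takes part in tracheal cartilage formation, was the 1 of 15 that rose with BMS493 averaged over strains (0.62; SE 0.14; adjusted p = 0.0152), against 1.37% of all tested genes called, and it missed the threshold without replicate 3 of A/J BMS493 (0.54; adjusted p = 0.0511). Of 7 tested cartilage collagen genes, 2 were lower in A/J with BMS493, Col9a3 (-0.74) and Col11a2 (-0.46), against 20.0% of all tested genes called. Both were close to the threshold (adjusted p = 0.0418 and 0.0478), and without replicate 3 of B6 BMS493 they were -0.45 (adjusted p = 0.0889) and -0.25 (adjusted p = 0.130). Leaving out 1 library ended the Col9a3 call in 13 of 16 fits and the Col11a2 call in 12 of 16. In controls 0 of 7 were called by edgeR or DESeq2. An unadjusted p under 0.05 was found for 2 of 7, and for 5007 of all 17276 tested genes. For the averaged BMS493 effect 0 of 7 collagen genes were called by edgeR or DESeq2. There 1 of 7 had an unadjusted p under 0.05, as had 1868 of all 17276 tested genes.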

How the data were processed

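The genes and lists described here were chosen with earlier results of these data known. The authors deposited 1 table of raw counts per library, with 57180 gene identifiers, 4 lines that are not genes and 3 count columns, 1 without strand and 1 for each strand. The submitters' processing notes name FastQC, cutadapt, STAR and the genome build GRCm39, with no versions. The lines that are not genes held 23.1% to 28.3% of fragments and were left out of library sizes and tests. The first strand column held 51.0% to 52.0% of the counts of the pair of strand columns, so the column without strand was used. Groups were taken from the labels of strain and treatment. Symbols and exon lengths came from GENCODE M21 (GRCm38), with 51884 of the identifiers matched (98.9% of counts), so no coordinates of the files are given. Promoters came from RefSeq (GRCm38.p6).

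R 4.3.3 with edgeR 4.0.16 was used. Genes were filtered with filterByExpr (17276 kept, 39904 removed), scaled by TMM and fitted with the robust quasi-likelihood model over all 16 libraries with 1 term per group (12 residual degrees of freedom). The 7 contrasts were BMS493 against control in each strain and averaged, A/J against B6 with each treatment and averaged, and the difference of the BMS493 effects. P-values were adjusted by Benjamini-Hochberg over all tested genes, with a call at an adjusted p under 0.05. The standard error is the log2 change divided by the square root of its F value. CPM values are counts over the TMM-scaled library size. Genes named from a list are the members, Sox9, Col2a1, and up to 3 called genes with the largest change per list and contrast. The procedure was tested on simulated data. Alternatives were RLE scaling, DESeq2 1.42.0, dropping the filter or asking for a mean CPM of 1, fitting the compared groups alone, blocking on replicate number, library numbers 1 to 8 against the rest as a block, 1 strand column, and each library left out in turn. Summaries were made in Python 3.11.15 with pandas 2.3.3, and figures with matplotlib 3.10.9. Intervals cover the spread between libraries, and the limit for a count of 0 covers counting error only.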

Additional observations from a re-analysis of the deposited data

Results flagged for a closer look

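Hapln1 in the A/J controls had 1 library apart from the other 3. Replicate 4 had 54.6 CPM and the others 48.8 to 49.6 CPM, so the gap to the nearest library was 0.864 of the range of the group, above Dixon's critical value at 95% for 4 samples. Of 32 groups examined (8 genes in 4 groups), 1 met this rule, and chance flags about 1 in 20. The library still lay below every B6 library, and without it the A/J minus B6 control difference in Hapln1 kept its direction and its call.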

How the results depend on the processing

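With each library left out, members called for BMS493 in B6 ranged from 0 to 1, and the count was 0 with only the libraries compared and with 1 strand column. Of the calls of members, Hapln1 and Matn4 between strains (with each treatment and averaged), Sox5 averaged over treatments and Hapln1 averaged over strains kept direction and threshold under every alternative. Genes called among all tested for BMS493 in B6 went from 73 to 150 with DESeq2, 260 with no filter and 27 with only the libraries compared, and from 27 to 201 with 1 library left out. In A/J they went from 84 to 145, 178 and 133 under the same 3 alternatives, and from 52 to 121 with 1 library left out. Averaged over strains they went from 237 to 387 with DESeq2 and 487 with no filter, and from 165 to 371 with 1 library left out. For the difference of effects they went from 1 to 2 with DESeq2 and 12 with no filter, and from 1 to 2 with 1 library left out. The causes were not tested. Signs turned only in estimates that were not called: Sox6 in B6 (0.042 with 1 strand column; -0.12 to 0.063 with 1 library left out) and between strains on average (0.0044; -0.060 to 0.037), and Acan for BMS493 in B6 (-0.46 to 0.93), averaged (-0.50 to 0.20) and between control strains (-0.25 to 0.56). Acan gave no value with the stricter filter or the strand column.

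Replicate numbers did not pair the samples: over 24 pairs with the same number in different groups, r ran from -0.15 to 0.15, 3 pairs were over 0.1, and 7 of 16 libraries correlated best with their own number. With the replicate number as a block, Hapln1 gave -0.46 (adjusted p = 0.0335) for BMS493 in B6 and -0.35 averaged over strains, and the block changed no call of a member, while Col9a3 between strains with BMS493 missed the threshold (-0.70; adjusted p = 0.0501). Matn1 had 0 to 3 and Acan 7 to 39 counts per library, and the part of depth in the spread of Acan was not tested.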
